A study of Homo sapiens with 4 samples.

Results

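The H3K4me3 peaks described here lie upstream of genes and outside every transcript with which the authors compared them. Trimethylation of lysine 4 on histone H3 (H3K4me3) was mapped by ChIP-seq in 2 human leukemia cell lines, RS4;11 and THP-1, and each peak was flagged by the authors as lying within 20 kb upstream of a transcript, within 20 kb downstream of it, in an exon or in an intron. An upstream-only peak is an interval with at least 1 upstream flag and no downstream, exon or intron flag for any transcript. There were 2011 such peaks among 24212 distinct H3K4me3 peaks in RS4;11 and 2728 among 26523 in THP-1, 4739 in all, in a series of 51663 distinct peaks that also holds WDR5 peaks. RS4;11 is a B-precursor line and THP-1 a monocytic line, and both carry a rearranged MLL gene. Each line was grown untreated in RPMI1640 with 10% FBS, and each was profiled once with the H3K4me3 antibody ab8580 and once with the WDR5 antibody ab56919. With 1 sample per line and antibody, and each line a single culture, there is no replicate error, and every interval given covers only the counting of peaks within 1 sample. The labels give the RS4;11 H3K4me3 sample a myeloid cell type and the THP-1 WDR5 sample a lymphoblastic one, and the cell lines are used here as named.

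H3K4me3 is laid down by the MLL/SET1 family of methyltransferases, which work in a complex with WDR5, RBBP5, ASH2L and DPY30. The mark typically forms a peak over the start of transcribed genes, most of all at promoters rich in CpG, and weaker peaks occur at active enhancers and at the starts of noncoding RNAs. A peak outside the transcripts of an older gene catalogue can therefore sit at a transcript start missing from that catalogue, at a distal element, or in the flank of a promoter peak.

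Properties of the whole files bear on these peaks. No H3K4me3 peak was wider than 4478 bp in RS4;11 or 4446 bp in THP-1, and many active promoters had no peak. Of 12 housekeeping genes that every cell uses, 4 in RS4;11 and 3 in THP-1 had a peak over any of their starts in GENCODE. Over all 20149 protein-coding genes, 53.4% (95% Wilson interval 52.7 to 54.1) in RS4;11 and 59.1% (58.5 to 59.8) in THP-1 had one. The lack of an exon-flagged peak at a gene is thus not a measurement that its promoter lacks the mark, and the cause was not tested. The line markers did not separate the samples either. Exon-flagged peaks were found at 4 of 7 B-lineage markers in RS4;11 and at 6 of 7 in THP-1, where PAX5 and EBF1 were marked, and at 4 of 8 monocytic markers in RS4;11 and 6 of 8 in THP-1. Of 5 markers of other cell types in the files, 2 (the T-cell genes CD3E and CD3D) were marked in RS4;11 and 0 in THP-1. Among the 18494 genes named in either H3K4me3 file, 60.2% in RS4;11 and 66.5% in THP-1 had an exon-flagged peak. The marker counts were not tested against these shares.

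The sequences at the center of 5 wide upstream-only peaks show the range of base composition among them. They are shown because SOX4, DLEU2, SLC38A2, EFEMP1 and H2AFY had no exon-flagged peak in the same line. Each is the central 300 bp of the peak on the plus strand of hg19 (GRCh37), with every CpG in capitals. SOX4 encodes a transcription factor of B-cell progenitors, DLEU2 is a noncoding RNA that hosts microRNA genes, SLC38A2 is an amino acid transporter, EFEMP1 encodes a fibulin of the extracellular matrix, and H2AFY encodes the histone variant macroH2A1.
SOX4 (RS4;11, chr6:21588237-21588536): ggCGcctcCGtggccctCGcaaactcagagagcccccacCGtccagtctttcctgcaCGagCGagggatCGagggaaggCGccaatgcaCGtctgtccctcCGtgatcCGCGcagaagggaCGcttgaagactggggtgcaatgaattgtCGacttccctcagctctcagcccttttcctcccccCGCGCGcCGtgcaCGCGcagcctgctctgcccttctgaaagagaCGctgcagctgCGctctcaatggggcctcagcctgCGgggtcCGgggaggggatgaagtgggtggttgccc
DLEU2 (THP-1, chr13:50704031-50704330): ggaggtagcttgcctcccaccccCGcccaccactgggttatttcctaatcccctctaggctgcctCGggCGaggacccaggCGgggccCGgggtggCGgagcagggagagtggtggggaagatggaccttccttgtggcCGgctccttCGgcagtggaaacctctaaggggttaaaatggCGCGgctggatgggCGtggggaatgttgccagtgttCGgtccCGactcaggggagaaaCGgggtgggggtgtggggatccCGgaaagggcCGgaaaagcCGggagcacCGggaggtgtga
SLC38A2 (THP-1, chr12:46777788-46778087): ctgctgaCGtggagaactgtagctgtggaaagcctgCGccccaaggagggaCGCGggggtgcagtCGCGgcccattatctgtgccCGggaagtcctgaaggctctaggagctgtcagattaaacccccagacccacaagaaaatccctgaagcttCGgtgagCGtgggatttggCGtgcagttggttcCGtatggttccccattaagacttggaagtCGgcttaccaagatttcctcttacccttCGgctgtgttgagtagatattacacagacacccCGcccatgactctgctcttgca
EFEMP1 (RS4;11, chr2:56160091-56160390): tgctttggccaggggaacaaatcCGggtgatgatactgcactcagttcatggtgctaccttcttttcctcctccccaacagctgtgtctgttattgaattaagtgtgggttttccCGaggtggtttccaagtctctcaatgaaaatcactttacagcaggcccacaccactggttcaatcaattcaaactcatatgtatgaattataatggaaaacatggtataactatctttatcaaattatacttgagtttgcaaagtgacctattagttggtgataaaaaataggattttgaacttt
H2AFY (THP-1, chr5:134747743-134748042): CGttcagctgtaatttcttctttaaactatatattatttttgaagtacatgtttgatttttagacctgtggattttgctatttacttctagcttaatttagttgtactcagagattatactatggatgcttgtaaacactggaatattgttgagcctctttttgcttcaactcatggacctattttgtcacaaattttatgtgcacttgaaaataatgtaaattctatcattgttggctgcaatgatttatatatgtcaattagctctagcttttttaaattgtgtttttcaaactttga
The SOX4 window holds 24 CpG and has a GC content of 65.3%. The DLEU2 window holds 18 CpG and the SLC38A2 window 14. By contrast the EFEMP1 window holds 2 CpG at a GC content of 38.7% and the H2AFY window 1 at 29.0%, although their peaks are as wide as the CpG-rich ones, at 3812 and 3888 bp. GGGCGG, the core of the GC box bound by SP1-like factors, occurs in the DLEU2 and SLC38A2 windows on either strand.

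The upstream-only peaks were narrow. In RS4;11 their median width was 936 bp (95% interval 908 to 968), with quartiles of 641 and 1394.5 bp and a range of 182 to 4333 bp. In THP-1 the median was 905.5 bp (882 to 929) with a range of 209 to 4191 bp. Exon-flagged peaks, the group that covers most gene starts, had medians of 2359 and 2149 bp, and all peaks together had medians of 1391 and 1241 bp. The other classes without an exon flag had medians nearer to the upstream-only peaks, at 920 bp (890 to 945) and 878 bp (855 to 903) for peaks with a downstream flag alone and at 885 bp (874 to 898) and 818 bp (807 to 826) for peaks with an intron flag. Only 3.03% of upstream-only peaks in RS4;11 and 1.61% in THP-1 exceeded 3000 bp, against 25.2% and 19.8% of exon-flagged peaks. Peaks just outside the rule, with both an upstream and a downstream flag, numbered 1106 and 1287 and had medians of 983 and 911 bp.

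**Figure D1:**
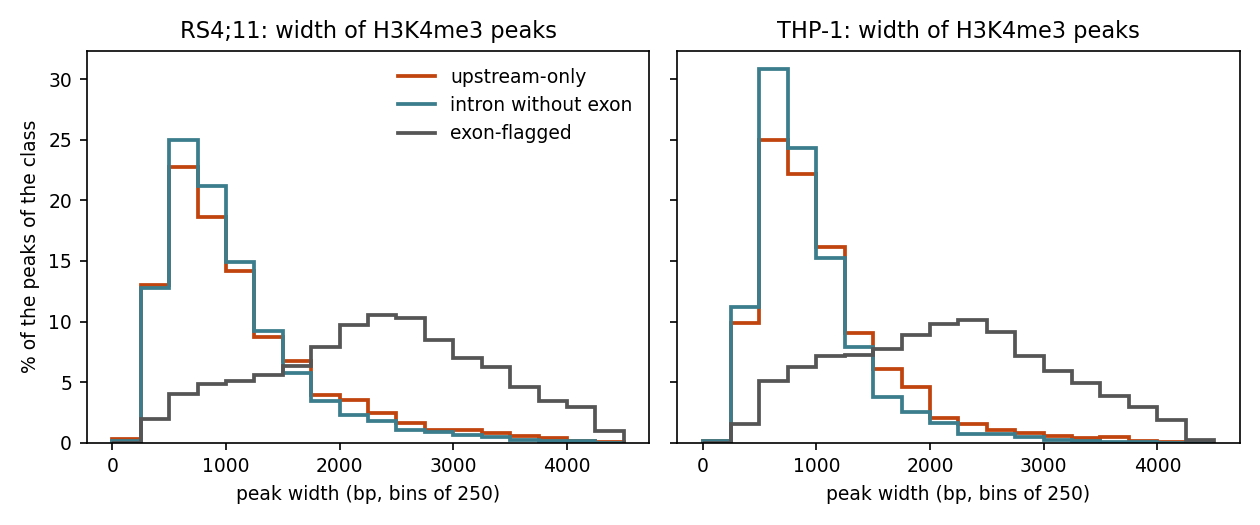
Width of H3K4me3 peaks in bins of 250 bp, as the percentage of each class, for RS4;11 (left) and THP-1 (right). The upstream-only curve (medians 936 and 905.5 bp) runs with the intron curve (885 and 818 bp) and falls away where the exon-flagged curve is highest (medians 2359 and 2149 bp).

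The widest upstream-only peaks were in part gene starts by a newer annotation. In RS4;11 the widest, chr2:96984039-96988371 (4333 bp), was flagged for SNRNP200, a helicase of the spliceosome, for the condensin gene NCAPH and for ITPRIPL1, and it holds a start of SNRNP200 in GENCODE. The next, chr9:14319822-14323962 (4141 bp), holds a start of NFIB, a transcription factor of the nuclear factor I family. The peak at BCL9L, a cofactor of beta-catenin, was 4073 bp wide and holds starts of BCL9L and UPK2. The peaks at RIOK2, a kinase of ribosome maturation (4013 bp), and ANKDD1A (3982 bp) hold no annotated start and center 10669 and 17485 bp upstream of these genes. In THP-1 the widest was at UTRN, which encodes utrophin (chr6:144604768-144608958, 4191 bp), followed by PHF3, which binds RNA polymerase II (3918 bp). Both hold a start of their gene. The next 3, at H2AFY (3888 bp), MDM4 and PIK3C2B (3774 bp) and DLEU2 (3769 bp), hold none.

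The distance of upstream-only peaks from a gene start depended on which starts were counted. The center was at a median of 8034 bp (7619 to 8490) from the nearest GENCODE start of the flagged gene in RS4;11, over the 1981 peaks whose gene was found in the annotation, and of 7513.5 bp (7052 to 7904) in THP-1, over 2690 peaks. To the nearest start of any annotated transcript, whatever its gene, the medians were 4500 bp (4173 to 4881) and 4003 bp (3691 to 4322). Centers within 1 kb of the start made up 12.8% (11.4 to 14.4) in RS4;11 and 18.5% (17.1 to 20.03) in THP-1. From 2001 bp outward the peaks were spread over the whole window, with 25.2% and 23.5% at 5001 to 10000 bp and 17.2% and 16.6% at 15001 to 20000 bp. The center was upstream of the nearest start for 88.9% of the peaks in RS4;11 and 90.5% in THP-1, and the others centered downstream of that start. Within the 1981 and 2690 peaks, 41 and 56 centered more than 20 kb from any GENCODE start of their flagged gene.

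**Figure D2:**
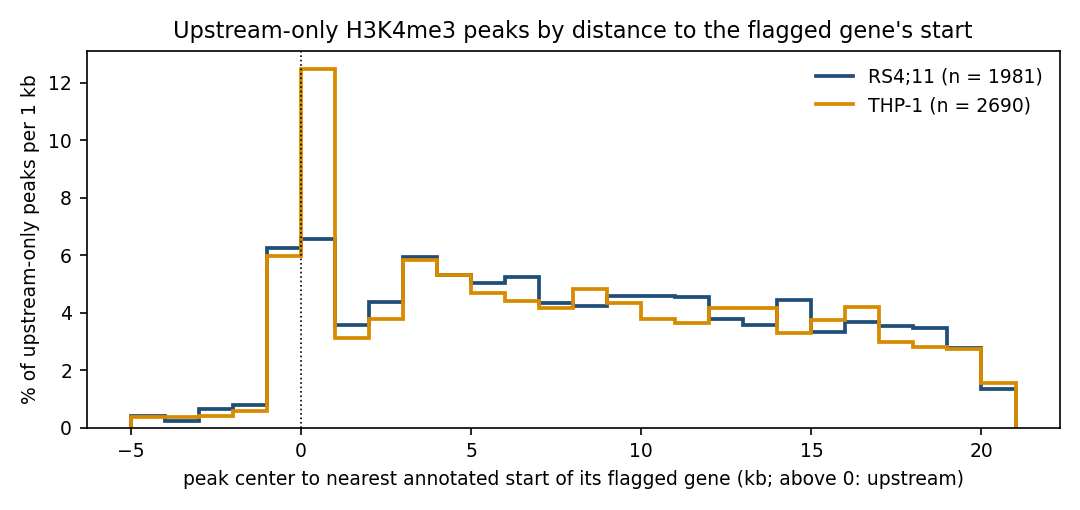
Distance from the center of each upstream-only peak to the nearest GENCODE start of its flagged gene, as a percentage per 1 kb, with upstream distances above 0 and peaks beyond the plotted range left out. The bin from 0 to 1 kb holds 12.5% of the THP-1 peaks and 6.56% of the RS4;11 peaks, and from 3 kb on both lines decline slowly.

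A newer gene catalogue placed a transcript start inside about 1 in 5 of these peaks. A GENCODE start lay within 392 of 2003 upstream-only peaks on the main chromosomes in RS4;11 (19.6%, 17.9 to 21.4), against 46.9% of all RS4;11 peaks and 86.9% of exon-flagged ones. In THP-1 it was 581 of 2720 (21.4%, 19.9 to 22.9), against 48.8% of all peaks and 87.4% of exon-flagged ones. For 184 peaks in RS4;11 and 284 in THP-1 the start belonged to the flagged gene itself, through a transcript that begins farther upstream than those in the authors' list. For 165 and 229 it belonged to a long noncoding RNA (lncRNA) gene, for 19 and 27 to another protein-coding gene and for 24 and 41 to a gene of another type. The remaining 1611 (80.4%) and 2139 (78.6%) held no annotated start. A GENCODE gene body was overlapped by 50.3% (48.1 to 52.5) and 48.5% (46.7 to 50.4) of the upstream-only peaks, although none lay in a transcript of the authors' list. The share was 89.4% and 87.9% over all peaks. It was 42.8% and 41.9% for downstream-only peaks and 48.0% and 48.7% for peaks with upstream and downstream flags.

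Peaks with and without a start differed in width, base composition and sharing. In RS4;11 the median width was 1610 bp (1468 to 1714) with a start and 843 bp (818 to 870) without, and in THP-1 it was 1362 bp (1296 to 1429) and 822 bp (803 to 844). A wide peak is more likely to hold a start, which favours this difference. In RS4;11 74.0% with a start and 41.7% without overlapped a peak of the other line, and in THP-1 58.5% and 33.8%. Wider peaks were also more often shared, and the groups were not matched for width. The observed over expected frequency of CpG, which is near 1 in sequence that has not lost CpG, had a median of 0.577 with a start and 0.255 without in RS4;11, and of 0.640 and 0.300 in THP-1. The center was CpG-rich, with a GC content of at least 50% and a ratio of at least 0.6 over a fixed central window, in 50.5% and 56.6% of those with a start and in 11.1% and 15.3% of those without. GGGCGG was found on either strand of the central 300 bp in 43.4% and 44.2% with a start and in 16.1% and 16.9% without.

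**Figure D3:**
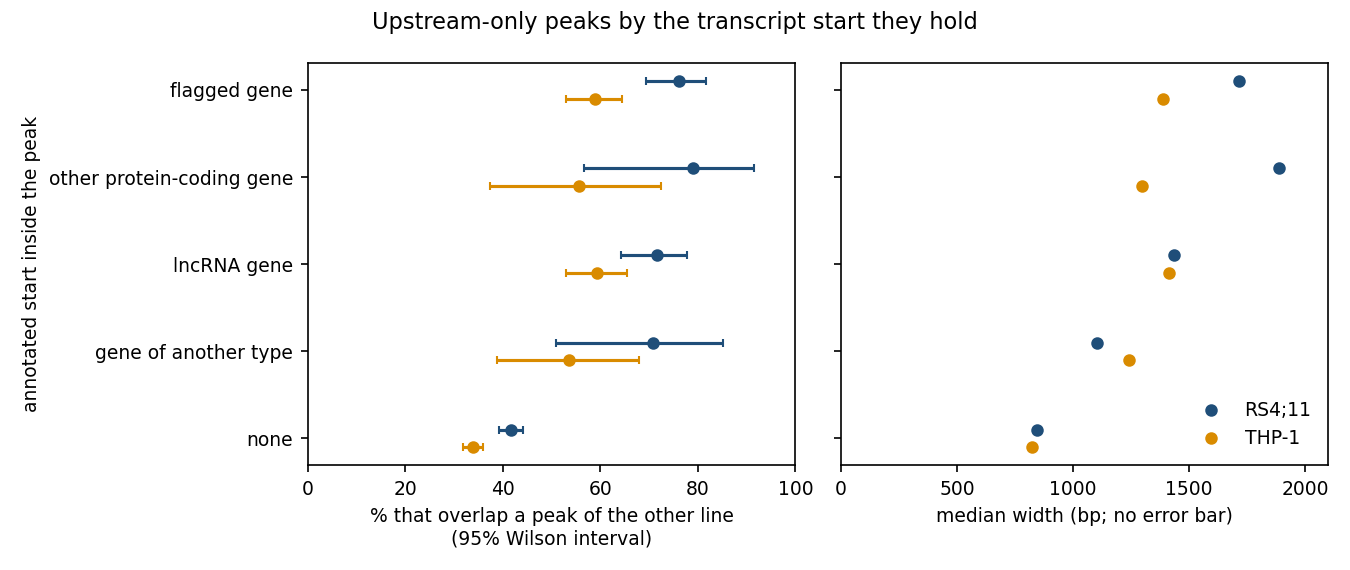
Upstream-only peaks grouped by the kind of GENCODE transcript start they hold, with the percentage that overlap a peak of the other line and its 95% Wilson interval (left) and the median width in bp (right). Peaks with no start are lowest in both panels, at 41.7% and 843 bp in RS4;11 and 33.8% and 822 bp in THP-1.

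Over all upstream-only peaks, the GC content had a median of 48.2% in RS4;11 and 48.4% in THP-1, below the 50.3% and 50.4% of all peaks and above the 44.6% and 43.4% of intron peaks. The median CpG ratio was 0.284 (0.273 to 0.295) and 0.355 (0.339 to 0.366), between those of intron peaks (0.230 and 0.261) and exon-flagged peaks (0.614 and 0.631). GGGCGG occurred in 21.4% and 22.7% of central windows, against 31.5% and 32.5% for all peaks, 9.91% and 11.5% for intron peaks and 50.1% and 49.7% for exon-flagged peaks. TGANTCA, the site of AP-1 factors such as FOS and JUN, occurred in 9.69% (8.47 to 11.1) and 10.9% (9.80 to 12.1), against 7.13% and 8.32% for all peaks. In exon-flagged peaks TGANTCA was found in 4.44% and 4.59%, in intron peaks in 9.85% and 12.5%, in downstream-only peaks in 7.78% and 11.2%, and in upstream-only peaks without an annotated start in 10.2% and 12.1%. Of 4 other motifs, CCAAT lay slightly above the share for all peaks (29.3% and 28.2% against 26.1% and 26.0%). So did the PU.1-type site GAGGAAGT (4.69% and 5.11% against 3.69% and 4.13%) and the octamer ATTTGCAT (2.05% and 1.69% against 1.18% and 1.34%). The ETS site CCGGAAGT (1.15% and 1.03% against 1.68% and 1.48%) lay below that share. The interval held the share for all peaks for ATTTGCAT in THP-1 (1.27 to 2.25) and for CCGGAAGT in both lines. In intron peaks CCAAT was found in 28.9% and 29.3% and GAGGAAGT in 4.94% and 6.31%. In downstream-only peaks the shares were 27.6% and 28.4% for CCAAT and 4.99% and 5.30% for GAGGAAGT. Exon-flagged peaks had lower shares of CCAAT (23.5% and 23.1%) and GAGGAAGT (2.26% and 2.38%). The shares for CCAAT and GAGGAAGT were thus not particular to upstream-only peaks. All 6 motifs were searched on both strands. A GGGCGG site cannot share bases with a TGANTCA site, and an occurrence is a description of letters.

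Sharing between the lines was intermediate as well. Of the RS4;11 upstream-only peaks, 964 of 2011 (47.9%, 45.8 to 50.1) overlapped a THP-1 H3K4me3 peak by at least 1 bp, against 55.8% of all RS4;11 peaks. Of the THP-1 ones, 1066 of 2728 (39.1%, 37.3 to 40.9) overlapped an RS4;11 peak, against 51.8% of all THP-1 peaks. Exon-flagged peaks overlapped in 80.1% and 71.4% of cases and intron peaks in 27.3% and 29.3%. Downstream-only peaks overlapped in 43.3% and 38.8%, and peaks with upstream and downstream flags in 49.8% and 47.2%. The intermediate position was thus not particular to upstream-only peaks.

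Wider peaks were more often shared in each class, up to 3000 bp. Upstream-only peaks of up to 500 bp overlapped a peak of the other line in 33.0% (27.6 to 38.8) of cases in RS4;11 and 20.6% (16.2 to 25.8) in THP-1. Those of 2001 to 3000 bp did so in 71.3% (64.1 to 77.5) and 61.5% (53.5 to 68.9). At equal width the order of the classes depended on the width. Above 500 and up to 1000 bp, upstream-only peaks (40.5% and 30.5%) matched exon-flagged peaks (40.3% and 32.1%) within their intervals and lay above intron peaks (21.5% and 23.7%). Between 2001 and 3000 bp they lay below exon-flagged peaks (92.2% and 86.0%), and above intron peaks in RS4;11 (46.7%, 42.3 to 51.2), while in THP-1 the intervals overlapped (56.1%, 50.2 to 61.8).

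**Figure D4:**
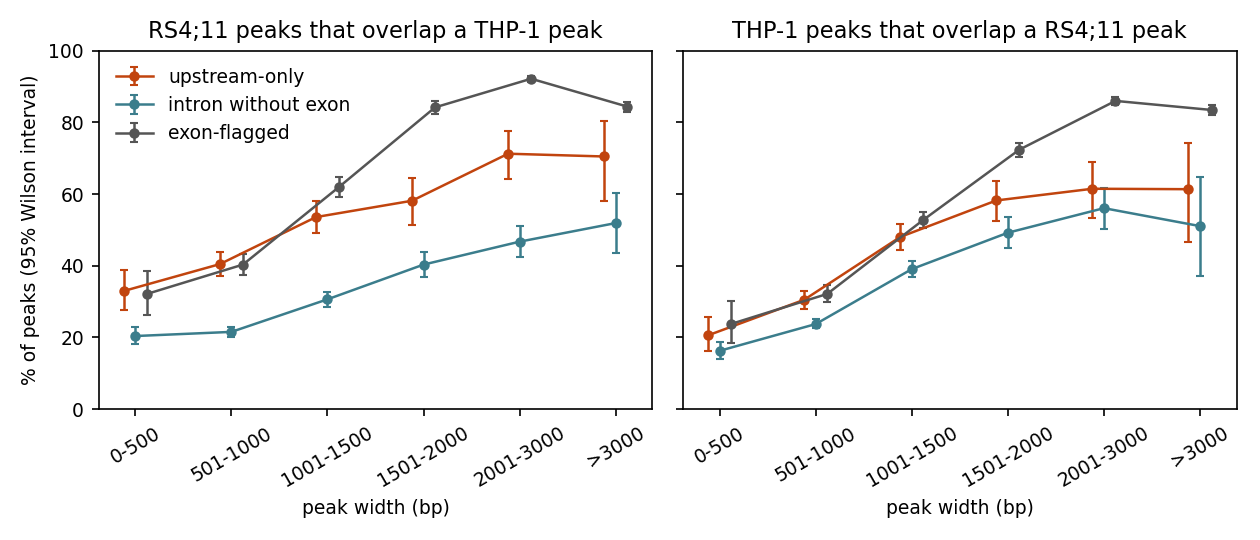
Percentage of H3K4me3 peaks that overlap a peak of the other line, by peak width in bp, with 95% Wilson intervals, for RS4;11 (left) and THP-1 (right). The upstream-only points rise from 33.0% to 71.3% and from 20.6% to 61.5% between the narrowest class and that of 2001 to 3000 bp, and lie below the exon-flagged points in every class above 1000 bp.

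Peaks that were shared had mostly the same class in both lines. A class follows from position, which favours the same class for peaks that overlap. Of the 964 RS4;11 peaks that overlapped, 923 (95.7%) met an upstream-only THP-1 peak and 41 met only an exon-flagged one. Of the 1066 THP-1 peaks, 929 (87.1%) met an upstream-only RS4;11 peak, 135 (12.7%) an exon-flagged one and 2 a peak with upstream and downstream flags. Where the class was the same, the median ratio of widths, the other line to the first, was 1.03 for RS4;11 peaks and 0.975 for THP-1 peaks. The peak of the other line was wider for 53.1% and 47.6% of them, and the spread of the ratio was not measured. Single pairs could differ widely, such as NFIB at 4141 bp in RS4;11 and 1935 bp in THP-1. An exon-flagged peak reaches an exon that the overlapping upstream-only peak does not, so the rule itself favours a greater width of the former. Of the 42 RS4;11 peaks that overlapped an exon-flagged THP-1 peak, 41 were narrower than it, with medians of 868.5 and 2373.5 bp. All 135 THP-1 peaks that overlapped an exon-flagged RS4;11 peak were narrower than it, with medians of 948 and 2689 bp. One such peak lies 397 bp upstream of CLIP2, which encodes a microtubule linker: chr7:73703035-73703646 was 612 bp in THP-1, and the RS4;11 peak there was 3284 bp wide with an exon flag. Shared upstream-only peaks had median widths of 1088 and 1093 bp against 818 and 808 bp for those found in a single line, and median CpG ratios of 0.429 and 0.472 against 0.226 and 0.303.

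The shared pairs with the largest summed width are given by their widths in RS4;11 and THP-1. At SDCCAG1, also called NEMF, which acts in ribosome quality control, the peak was 3831 bp in RS4;11 and 3742 bp in THP-1. These peaks center 9764 and 9747 bp upstream of SDCCAG1 and hold starts of RN7SL2 and of the lncRNA gene ENSG00000282885. The pair at UTRN was 3225 and 4191 bp, and that at CIC, a transcriptional repressor, was 3652 and 3701 bp over a start of CIC. The pair at SBNO1 and SETD8, SETD8 being an H4K20 methyltransferase, was 3714 and 3613 bp over a start of SBNO1. The pair 9906 and 9984 bp upstream of NANS, which makes sialic acid, was 3621 and 3564 bp, holds no annotated start and has CpG ratios of 0.208 and 0.215.

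Whether the flagged gene also carried an exon-flagged peak was then counted. In RS4;11, 1123 of 2011 upstream-only peaks (55.8%, 53.7 to 58.0) had a flagged gene with an exon-flagged peak in the same line, and in THP-1 1702 of 2728 (62.4%, 60.6 to 64.2). Counted over genes, 1058 of the 1988 RS4;11 genes with an upstream-only peak (53.2%) and 1583 of the 2697 THP-1 genes (58.7%) had one, against 60.2% and 66.5% of the 18494 genes named in either H3K4me3 file and 68.2% of the 16329 and 70.5% of the 17441 genes named in the file of the same line. Genes were counted in these reference sets because they had a flag of any kind, the exon flag included. That favours a higher share there, and the difference was not tested. When an exon-flagged peak in either line was allowed, the shares of upstream-only peaks were 70.6% and 72.0%. The gap between the upstream-only peak and the nearest exon-flagged peak of its gene had a median of 10409 bp (9756 to 11122) and 9185 bp (8528 to 9960), and it was at most 1000 bp in 3.03% and 7.94% of cases. Peaks with and without an exon-flagged peak at the gene had median widths of 947 and 934 bp in RS4;11 and of 883.5 and 937.5 bp in THP-1, and the shares with an annotated start were 19.3% and 19.98% in RS4;11 and 19.9% and 23.8% in THP-1. The start of a protein-coding gene lay in 9.63% and 9.88% of them in RS4;11, and in 9.65% (8.33 to 11.1) and 13.6% (11.7 to 15.9) in THP-1, where the intervals do not overlap. The center was within 2 kb of the flagged gene's start for 341 and 597 peaks, and of these 45.2% (40.0 to 50.5) and 53.3% (49.3 to 57.2) had an exon-flagged peak at the gene. At 2001 to 5000 bp the shares were 61.0% (55.7 to 66.1) and 68.8% (64.3 to 73.0).

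Among the widest peaks with no exon-flagged peak at the gene in the same line, NFIB (4141 bp), LOC284551 (3923 bp), SOX4 (3908 bp), EFEMP1 (3812 bp) and CYP7B1 (3682 bp) stood in RS4;11. CYP7B1 is an oxysterol hydroxylase, and the peak flagged for it holds a start of a lncRNA gene. The SOX4 peak, chr6:21586433-21590340, centers 5596 bp upstream of the gene, and THP-1 had a peak of 3204 bp there together with 2 exon-flagged peaks at SOX4. The EFEMP1 peak, chr2:56158335-56162146, had no overlapping THP-1 peak. In THP-1 the widest included H2AFY (3888 bp), DLEU2 (3769 bp), SLC38A2 (3728 bp) and NR4A2 (3664 bp). The SLC38A2 peak centers 11381 bp upstream of that gene and holds a start of the lncRNA gene SLC38A4-AS1. The NR4A2 peak covers a start of that nuclear receptor gene, and the RS4;11 peak there was 3173 bp.

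Of the upstream-only peaks, 85.4% in RS4;11 and 85.3% in THP-1 were flagged for a single gene, 10.7% and 10.7% for genes on both strands, and 6.96% and 5.83% for noncoding transcripts alone. Their share of all peaks per chromosome ranged from 6.74% (chromosome 3) to 10.4% (chromosome 5) in RS4;11 and from 9.07% (chromosome 3) to 12.0% (chromosome 10) in THP-1, with Y left out. Most genes with an upstream-only peak had a single one. In RS4;11, 1658 of 1988 genes had 1, 295 had 2, 34 had 3 and 1 had 4, and in THP-1 the numbers were 2242, 399, 51 and 5. The RS4;11 gene with 4 was RGS12, a regulator of G-protein signalling, with peaks of 2838, 962, 2193 and 1213 bp between chr4:3293457 and 3308899. Only the first of these, over a start of RGS12, was shared with THP-1. HMHB1, which encodes a minor histocompatibility antigen known from B-precursor leukemia, had 3 RS4;11 peaks of 1352, 2655 and 3676 bp at 19845, 11197 and 4893 bp upstream, and only the farthest had a THP-1 counterpart, of 1009 bp. MALAT1, a nuclear lncRNA, had 3 RS4;11 peaks of 2921, 1259 and 2524 bp, each over the start of another lncRNA and each shared with THP-1. In THP-1 the genes with 4 were CD97, an adhesion receptor of leukocytes, SOS1, an exchange factor of RAS, ZHX3, a transcriptional repressor, NKD2, an antagonist of WNT signalling, and CLIP2. The CD97 peaks were 1027, 1618, 1047 and 673 bp wide, at 16877, 10039, 5058 and 2396 bp upstream, and the 3 farthest were shared with RS4;11 while the nearest was not.

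In both lines 1198 genes had an upstream-only peak, which is 60.3% of the RS4;11 genes and 44.4% of the THP-1 genes, and at 1025 of the 1198 the peaks of the lines overlapped. Of the 18494 genes named in either H3K4me3 file, 10.7% in RS4;11 and 14.6% in THP-1 had an upstream-only peak. The counts in gene lists are given beside these shares without a test. At the genes of these lists, a peak named for a single line had no overlapping peak of any class in the deposited file of the other line, and such a difference was not tested.

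B-lineage genes had upstream-only peaks at 4 of 25 in RS4;11 and 5 of 25 in THP-1. RAG1, a recombinase of antigen receptor genes, had a peak of 690 bp 3319 bp upstream in RS4;11. BLNK, an adaptor of B-cell receptor signalling, had an RS4;11 peak of 1704 bp 1329 bp upstream. A peak between BLNK and DNTT, which encodes the terminal transferase of B-cell precursors, was 1520 bp in RS4;11 and 618 bp in THP-1. TCF3, which encodes the E2A factors, had 3 peaks in each line and 2 of them overlapped. EBF1, a factor that specifies B cells, had a peak of 821 bp in THP-1 and none in RS4;11. The kinase gene BLK had peaks of 525 and 648 bp in THP-1 and no upstream-only peak in RS4;11. The narrower one was also flagged for FAM167A and holds a start of that gene.

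Myeloid genes had upstream-only peaks at 5 of 27 in RS4;11 and 7 of 27 in THP-1. SPI1, which encodes the myeloid and B-cell factor PU.1, was flagged with its neighbour SLC39A13 for a peak of 1730 bp in RS4;11 (chr11:47415857-47417586) and 3143 bp in THP-1 (chr11:47414312-47417454). In both lines this peak holds a start of the lncRNA gene SLC39A13-AS1, and SLC39A13 was the flagged gene with the nearest start. Peaks at CD33, a surface receptor of myeloid cells (675 and 1047 bp), and LYZ, which encodes lysozyme (1048 and 1092 bp), were also present in both lines. Those flagged for CD33 hold starts of other genes, SIGLEC22P among them. Peaks at CSF3R, the receptor of G-CSF (1190 bp), the granule protease gene CTSG (735 bp), the integrin gene ITGAM (1059 bp) and KLF4 (409 bp) were found in THP-1. Peaks at IRF8, a factor of monocytes and B cells (636 bp), and CD36 (611 bp) were found in RS4;11.

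Genes of immune signalling had upstream-only peaks at 11 of 27 in RS4;11 and 12 of 27 in THP-1. CXCR4, the receptor that retains cells in the marrow, had 2 peaks in RS4;11 (1651 and 1360 bp) and 1 in THP-1 (701 bp), which overlapped the farther one. The cytokine gene IL1B had a peak of 1221 bp in RS4;11 and 1132 bp in THP-1 at positions that do not overlap, 2733 and 4674 bp upstream. TNFSF13B, which encodes the B-cell survival factor BAFF, had a peak of 1712 bp in RS4;11 and 697 bp in THP-1 at the same place. Peaks at TNFAIP3 (952 bp), IL10 (1078 and 873 bp) and CD69 (1086 bp) were found in RS4;11, and those at IL8, IL6R (816 bp), CD83 (1336 bp) and NFKBIA (657 bp) in THP-1.

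Among cell cycle genes and oncogenes the counts were 5 of 20 and 8 of 20. The p21 gene CDKN1A had a peak of 2984 bp 8276 bp upstream in RS4;11 and one of 907 bp 13279 bp upstream in THP-1, and they do not overlap. LMO2, a transcription cofactor of blood stem cells, had 2 peaks in RS4;11, 2375 bp wide and 2354 bp upstream, and 705 bp wide and 15519 bp upstream, of which the farther was shared with THP-1. In THP-1 peaks were found at MYC (776 bp, 9372 bp upstream), CCND1 (1611 bp) and HHEX (686 bp), while CCND2 had peaks of 1712 bp in RS4;11 and 1036 bp in THP-1 that do not overlap.

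Targets of MLL fusion proteins had an upstream-only peak at 0 of 19 genes in RS4;11 and at 1 of 19 in THP-1, PBX3, where a peak of 1706 bp covers the start of a divergent lncRNA. Exon-flagged peaks were found at 3 and 8 of these 19 genes, beside 60.2% and 66.5% of the 18494 genes named in either H3K4me3 file, and neither count was tested. Genes of H3K4 methyltransferase complexes had upstream-only peaks at 3 of 13 in RS4;11 and 4 of 13 in THP-1. ASH2L (508 and 676 bp), MLL4 (1301 and 1367 bp) and CXXC1, with 2 peaks in each line, had them in both lines at overlapping positions, and WDR5 itself had a peak of 928 bp 12167 bp upstream in THP-1. The MLL4 peaks were also flagged for ZBTB32, whose start was the nearer one, at 1987 and 2003 bp from the center. Of 6 genes that the study names as WDR5 targets, LYN (963 bp) and BCL9 (706 bp) had one in RS4;11 and MED24 (454 bp) in THP-1. The MED24 peak was also flagged for THRA, and it centers 296 bp downstream of a THRA start, which was the nearer one. Of the housekeeping genes 2 and 3 of 12 had one. Of 10 genes of other tissues in the files, 0 had one in RS4;11 and 4 in THP-1, namely the neural genes NEUROD1 and OLIG2, the heart and gut factor gene GATA4 and CD3E.

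Few upstream-only H3K4me3 peaks overlapped a WDR5 peak. Most peaks of the series are H3K4me3 peaks, so the number of WDR5 peaks limits such a share in every class. In RS4;11, 5 of 2011 (0.249%, 0.106 to 0.581) overlapped a WDR5 peak, against 0.24% of all RS4;11 H3K4me3 peaks, and in THP-1 6 of 2728 (0.220%, 0.101 to 0.479), against 0.102% of all. The shares were 0.355% and 0.261% for downstream-only peaks, 0.148% and 0.0499% for intron peaks and 0.283% and 0.0875% for exon-flagged peaks. In RS4;11 the 3 widest upstream-only peaks with WDR5 were at LEKR1 and PA2G4P4 (2223 bp, over the start of LINC00886), HKR1, a zinc finger gene (2048 bp), and ASAP1 (1307 bp). In THP-1 they were at FCHO2 (687 bp), DUSP5P (609 bp) and MAMDC2 (462 bp). The peak at MIR1977 was the only place with WDR5 among the named peaks of both lines, at chr1:569793-570070 in RS4;11 and chr1:569784-570086 in THP-1. This locus is a nuclear copy of mitochondrial DNA, and 74.4% and 69.5% of the 25-base words of these peaks occur in the mitochondrial genome. No other upstream-only peak had at least 50% of its words there, among 2003 and 2720 examined.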

How the data were processed

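H3K4me3 and WDR5 ChIP-seq of RS4;11 and THP-1 cells was used, 1 sample each. Per the study's methods, the authors digested chromatin with micrococcal nuclease for H3K4me3 and sonicated it for WDR5, mapped unique reads to hg19 with Eland at up to 2 mismatches, found peaks with MACS in its default setting and flagged them with a script of their own. The processing notes name CASAVA 1.7 and 1.8.2. The deposited files hold peak positions and yes or no flags per transcript, with no tag counts, heights or p-values, so depth is unknown. Unique alignment lowers signal in repeats.

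Lines (65514 and 70371) were reduced to distinct intervals and classed by their flags in the order exon, intron, upstream and downstream. Of 18494 gene symbols, 18118 were found in GENCODE 44 lifted to GRCh37. The 37 and 35 peaks outside chromosomes 1 to 22, X and Y, of which 8 and 8 were upstream-only, were left out of steps using sequence or annotation. Shares have 95% Wilson intervals and medians have binomial order-statistic intervals. No test was run, since each line has 1 sample. The members, lists and comparisons were chosen with earlier results of these data known. Named peaks are the 5 per line that were widest, widest without an exon-flagged peak at the gene, widest shared or widest with WDR5, peaks of the 5 genes with most of them, and peaks of list genes. Some items are not reported here. On simulated peaks the rule classed 2000 of 2000 correctly and the overlap search was right for 1000 of 1000. The tools were Python 3.11.15, scipy 1.17.1, numpy 2.4.6 and matplotlib 3.10.9.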

Additional observations from a re-analysis of the deposited data

How the results depend on the processing

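With 1 sample per line no replicate could be left out, and filters on peak strength were not run because the files used here give none. No paired analysis was possible because the result comes from no test. The values below are those that left the 95% interval of the reported share or median, or moved a count by over 1.5 times, and 20 others did not. The number of upstream-only peaks was 3117 in RS4;11 when a downstream flag was allowed, 996 and 1400 (RS4;11 and THP-1) without those that overlap an annotated gene body, and 911 and 1175 at a width of at least 1000 bp. The share that overlapped the other line was 59.2% and 52.9% at that width, 50.4% in RS4;11 with a gap of up to 1000 bp, and 34.1% in THP-1 when only upstream-only peaks counted. The share with an exon-flagged peak at the gene was 70.6% and 72.0% with either line allowed, 49.5% and 56.1% when every flagged gene had to have one, 53.1% and 59.3% for the gene with the nearest start, and 59.9% in THP-1 at a width of at least 1000 bp. It was 59.3% and 66.4% when another peak over a GENCODE start of the gene also counted, an alternative chosen after seeing the data. The median distance to the start was 7524 and 7046 bp from the nearest edge, and 4500 and 4003 bp to any annotated start. The median GC content was 49.1% and 49.2% in a fixed central window in place of the whole peak. Repeat content was not measured, because the reference used here carries no repeat mask.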
